A study of Rattus norvegicus with 71 samples.

Results

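The genes described here are 10 transcripts that neurons are known to raise during sustained activity, namely Nptx1, Nptx2, Scg2, Vgf, Homer1, Inhba, Pcsk1, Nr4a1, Nr4a2 and Nr4a3. They were taken by an exact match of the gene symbol in the deposited gene table, and are 10 of its 19771 genes. All 10 passed the filter on low counts, which kept 15343 genes for testing. They are set beside 15 immediate early genes, the transcription factors and signalling genes such as Fos, Npas4 and Arc that activity switches on first.

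RNA was sequenced from primary rat cortical cells grown on microelectrode array plates, in 71 libraries and 25 groups. Haloperidol, a dopamine receptor blocker, was given at 0, 0.3, 1 and 3 µM, and domoic acid, a glutamate receptor agonist, at 0, 0.1, 0.3 and 1 µM. Deltamethrin was given at 0, 0.3, 1, 3 and 10 µM and cypermethrin at 0, 1, 3 and 10 µM; both are pyrethroids, insecticides that hold sodium channels open. Cytosine arabinoside and 5-fluorouracil, antimetabolites that block DNA synthesis, were each given at 0, 0.1, 0.3 and 1 µM. Groups held 3 libraries, except 2 at 0 µM cypermethrin, 2 at 0 µM 5-fluorouracil and 1 at 0.3 µM deltamethrin. Dosing started 2 h after plating and was renewed on days 5, 7 and 9 in culture, and RNA was taken on day 12 from 2 to 3 pooled wells per library. The wells came from 2 separate cultures, and which library came from which culture was not stated, so a p-value here reflects library-to-library spread, part of which may be technical. The levels are thus those of cultures under lasting exposure.

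Activity reaches the nucleus of a neuron through calcium, and CREB and other factors then switch on immediate early genes, whose protein products take part in the later induction of effector genes. Among such effectors, the neuronal pentraxins Nptx1 and Nptx2 cluster AMPA receptors at synapses, and Homer1 is a scaffold of metabotropic glutamate receptors. Scg2 and Vgf encode granule proteins that are cut into neuropeptides, Pcsk1 encodes a protease that makes such cuts, and Inhba encodes the subunit of activin A, a secreted ligand. The Nr4a genes encode orphan nuclear receptors, and respond so fast in many cells that they are often counted among immediate early genes themselves.

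RefSeq promoters on the GRCr8 build were at hand for 7 of the 10 genes, Nptx2, Scg2, Vgf, Homer1, Inhba, Nr4a1 and Nr4a2. The 4 below cover the 250 bases before the annotated start. Scg2 and Vgf hold the cyclic AMP response element TGACGTCA, to which CREB binds, and Nr4a1 holds several copies of its shorter core TGACG. Nptx2 holds 1 copy of the core, as does Nr4a2, which is not shown. Nptx2 was picked for its levels described below, and a link between the core and those levels was not tested. Capitals mark the core on either strand, so that CGTCA is the same core read from the other strand, and the full element holds the core on both strands with overlapping letters.
Scg2 (chr9:88256867-88257116, minus strand): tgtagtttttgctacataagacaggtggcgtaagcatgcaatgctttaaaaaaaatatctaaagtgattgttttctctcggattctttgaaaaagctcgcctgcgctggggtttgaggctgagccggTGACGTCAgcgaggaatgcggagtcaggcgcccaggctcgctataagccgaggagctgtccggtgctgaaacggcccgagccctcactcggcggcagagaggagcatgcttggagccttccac
Vgf (chr12:25277021-25277270, minus strand): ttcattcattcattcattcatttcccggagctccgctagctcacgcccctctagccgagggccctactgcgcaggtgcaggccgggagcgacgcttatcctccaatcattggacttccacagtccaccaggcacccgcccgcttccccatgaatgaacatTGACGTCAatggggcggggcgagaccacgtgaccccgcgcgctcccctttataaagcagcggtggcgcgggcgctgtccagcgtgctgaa
Nr4a1 (chr7:134259888-134260137, plus strand): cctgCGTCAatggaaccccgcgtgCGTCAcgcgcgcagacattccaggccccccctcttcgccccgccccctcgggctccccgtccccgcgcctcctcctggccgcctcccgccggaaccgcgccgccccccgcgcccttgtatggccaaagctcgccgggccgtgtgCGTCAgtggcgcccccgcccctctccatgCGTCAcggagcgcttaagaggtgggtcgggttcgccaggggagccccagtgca
Nptx2 (chr12:15162046-15162295, minus strand): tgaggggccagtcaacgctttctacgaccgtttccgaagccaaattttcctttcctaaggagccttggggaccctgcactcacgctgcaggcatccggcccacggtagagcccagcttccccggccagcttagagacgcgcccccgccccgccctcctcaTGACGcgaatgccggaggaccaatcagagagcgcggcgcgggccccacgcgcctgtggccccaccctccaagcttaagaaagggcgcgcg
The full element stood in Scg2, 123 to 116 bases before the start, and in Vgf, 90 to 83 bases before it, which is 2 of the 7 promoters against 1.7% of all 27457. The core stood in 5 of the 7, Scg2, Vgf, Nr4a1, Nr4a2 and Nptx2, against 19% of all promoters and in 6 of 10 promoters of the immediate early genes. Nr4a1 held the core at 4 places. The AP-1 site TGAGTCA, bound by Fos and Jun proteins, stood in 0 of the 7 windows and in 3.98% of all. NBRE, the site AAAGGTCA bound by Nr4a receptors, stood in 0 of the 7 and in 1.11% of all, and the CArG box of serum response factor in 0 of the 7 and in 1.5% of all. These are matches of letters in short windows and say nothing of binding.

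Library totals ran from 5207635 to 43119303 counts (median 10193910), in 2 sequencing projects with 24 (GRC321) and 47 (GRC327) libraries. At 0 µM the summed level of 18 pan-neuronal markers was 11700 to 16100 CPM (counts scaled to the same library total), that of 10 astrocyte markers 3320 to 5740 CPM, that of 12 markers of the oligodendrocyte lineage 1390 to 1720 CPM and that of 6 microglia markers 0 to 1.13 CPM. The cortical cultures therefore held glial as well as neuronal transcripts. In such bulk libraries fewer cells of a type and less RNA per cell cannot be told apart. All levels below are CPM scaled to TMM library sizes, and changes are log2 fold changes ± SE from 1 edgeR quasi-likelihood model over all libraries, with Benjamini-Hochberg adjustment over the 15343 genes.

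The 10 genes were measured with at least 41 counts in each of the 16 libraries at 0 µM. Scg2 lay between 53.1 and 70.7 CPM with a median of 59.5. Nr4a1 lay between 7.58 and 27.2 CPM, the widest ratio of highest to lowest among the 10. The biological coefficient of variation is the spread between libraries of a group that is left after counting error and a model term for the sequencing project. It had a median of 20.5% over the 10 genes (11% for Homer1 to 26.4% for Nr4a1) and of 29.8% over the immediate early genes. Several immediate early genes had few counts at 0 µM, down to 0 in a library for Fosl2, 2 for Fosb and 3 for Klf4.

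Cytosine arabinoside at 1 µM was the condition with the most calls: 9 of the 10 genes rose and 0 fell, where 36% of all tested genes were called (16.6% higher). The same test called 12 of the 15 immediate early genes higher and 1 lower. The median change was 3.19 over the 10 genes, 2.30 over the immediate early genes and 0.03 over all genes. The first of these medians includes the Nr4a genes (3.94, 3.37 and 3.24), often counted as immediate early genes, and depends on placing them here. Of the other genes of the 10, Vgf (3.76), Scg2 (3.44) and Pcsk1 (3.14) lay above 2.30. Inhba (1.77), Nptx2 (1.02), Homer1 (0.58) and Nptx1 (0.44) lay below it. The 10 genes cover a range from Nr4a3, with a change of 3.94, to Nptx1, which did not pass. With 3 libraries a group, the rises of the neuropeptide precursors and of the Nr4a genes were between 9.44-fold and 15.4-fold.

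Among the granule genes, Scg2, the precursor of secretoneurin, stood at 62.2, 56.1 and 56.7 CPM at 0 µM and at 785, 581 and 539 CPM at 1 µM. Vgf, the precursor of several neuropeptides, stood at 25.3, 24 and 16.4 CPM and rose to 333, 329 and 223 CPM. Pcsk1, which encodes prohormone convertase 1/3, stood at 26.5, 20.8 and 18.7 CPM and rose to 322, 134 and 150 CPM. In each of these genes the lowest library at 1 µM was several-fold above the highest at 0 µM, and for Pcsk1 the GRC321 library stood far above the other 1 µM libraries. The changes were 3.44 ± 0.21 for Scg2 (adjusted p = 2.19e-19), 3.76 ± 0.33 for Vgf (adjusted p = 1.09e-13) and 3.14 ± 0.25 for Pcsk1 (adjusted p = 5.97e-15).

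Other genes of the secretory granule had smaller changes. Of 12, namely granins, processing enzymes and release factors, 7 rose and 3 fell, with a median change of 0.89. Over all tested genes 16.6% were called higher and 19.4% lower. Pam, which amidates peptides, rose by 1.92 ± 0.12 and Cadps2, a priming factor of granule release, by 1.82 ± 0.16 (adjusted p = 3.25e-19 and 1.02e-13). Ptprn, a granule membrane protein, rose by 0.98 ± 0.10 and Cadps, the relative of Cadps2, by 0.79 ± 0.11.

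All 3 Nr4a genes rose. Nr4a3 (Nor1) stood at 35.8, 49.0 and 44.6 CPM at 0 µM and at 860, 530 and 544 CPM at 1 µM. Nr4a1 (Nur77) stood at 12.6, 22.5 and 20.5 CPM and rose to 150, 232 and 174 CPM. Nr4a2 (Nurr1) stood at 9.75, 5.91 and 7.42 CPM and rose to 142, 38.1 and 56.0 CPM. No library at 1 µM fell within the range at 0 µM, and the GRC321 library at 1 µM was the highest for Nr4a2 and Nr4a3 and the lowest for Nr4a1. The changes were 3.94 ± 0.26 for Nr4a3 (adjusted p = 4.36e-18), 3.37 ± 0.33 for Nr4a1 (adjusted p = 3.29e-12) and 3.24 ± 0.25 for Nr4a2 (adjusted p = 1.27e-15).

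Inhba, the activin subunit, stood at 9.23, 12.1 and 9.75 CPM at 0 µM and at 60.6, 27.1 and 24 CPM at 1 µM, a rise of 1.77 ± 0.26 (adjusted p = 2.25e-07). The groups did not overlap, and the library at 60.6 CPM was again that of GRC321. Within GRC321, with 1 library at each concentration, the log2 ratio was 2.72, and within GRC327 the ratio of the means of 2 libraries each was 1.23. Of 10 other genes of the activin pathway, receptors, binding proteins and SMADs, only the inhibin subunit gene Inha was called (0.63 ± 0.21, adjusted p = 0.0148). Their median change was −0.25, and 36% of all tested genes were called.

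The synaptic genes had the smallest changes of the 10. Nptx2 stood at 47.6, 41.5 and 45.5 CPM at 0 µM and at 97.0, 87.6 and 88.7 CPM at 1 µM, a rise of 1.02 ± 0.14 (adjusted p = 3.98e-08) with log2 ratios of 1.03 within GRC321 and 1.02 within GRC327. Nptx1, its relative, stood at 91.3, 49.4 and 92.7 CPM and at 104, 107 and 105 CPM. Its levels at 1 µM were above those at 0 µM in every library, but the change of 0.44 ± 0.27 did not pass (adjusted p = 0.199; 95% interval −0.09 to 0.98). Of the 5 pentraxin partners, the receptor Nptxr and the AMPA receptor subunits, 0 rose and Gria3 fell (−1.19 ± 0.20). A similar share of all tested genes, 19.4%, was called lower, and 16.6% were called higher.

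Homer1 stood at 94.5, 122 and 95.8 CPM at 0 µM and at 217, 119 and 139 CPM at 1 µM, a rise of 0.58 ± 0.13 (adjusted p = 0.00033) with overlapping groups. The value of 217 CPM was that of the GRC321 library, and without it the change was 0.31 and no longer passed (adjusted p = 0.061). Within GRC327 alone it was 0.26 (adjusted p = 0.18). The counts are per gene, so they do not separate the short activity-induced isoform Homer1a from the long scaffold isoforms. Of 8 Homer partners, Shank3 rose (0.41 ± 0.12) and 4 fell, among them Homer3 (−1.05) and the scaffold gene Shank2 (−0.39). Among all tested genes 16.6% were called higher and 19.4% lower.

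**Figure D1:**
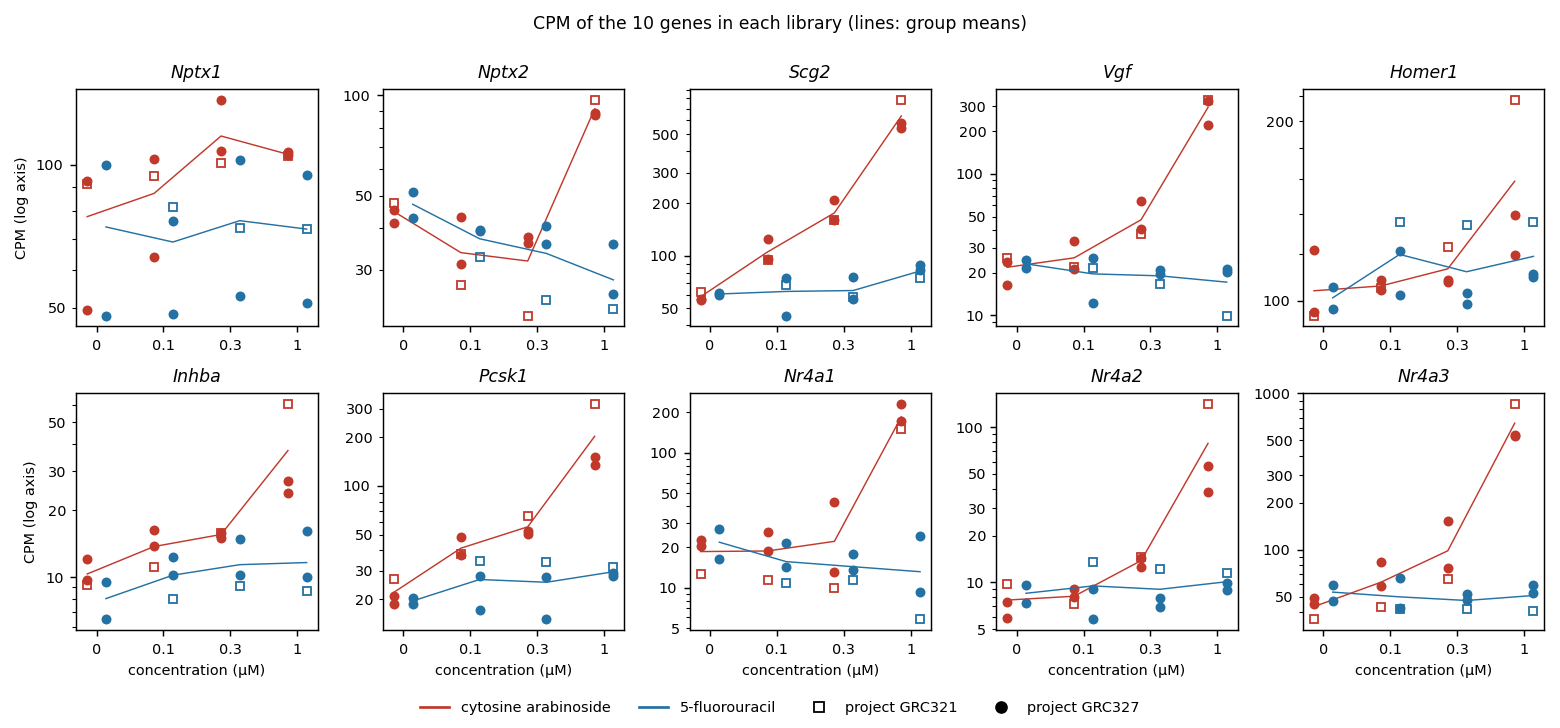
Level of each of the 10 genes (CPM, log axis) in every library against the concentration of cytosine arabinoside (red) and 5-fluorouracil (blue), in µM, with lines through the group means; open squares are GRC321 libraries and filled circles GRC327 libraries. Scg2 climbs at each cytosine arabinoside concentration, from 56.1 to 62.2 CPM at 0 µM to 539 to 785 CPM at 1 µM, while Nptx2 dips before it rises.

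The levels of cell type markers shifted with cytosine arabinoside as well. At 1 µM all 10 astrocyte markers and 11 of 12 markers of the oligodendrocyte lineage fell, and the summed astrocyte level was 217 to 271 CPM against 3320 to 5740 CPM at 0 µM of the same compound. GABAergic markers rose in 8 of 11, from a summed 627 to 796 CPM to 3100 to 4520 CPM. The 7 glutamatergic markers went the other way in sum, from 1210 to 1540 CPM at 0 µM to 839 to 1240 CPM at 1 µM. Pan-neuronal markers summed to 11500 to 16500 CPM against 12500 to 16000 CPM, with 5 of 18 higher, 1 lower and a median change of 0.19. Over all tested genes 16.6% were called higher and 19.4% lower at 1 µM. With all libraries scaled to the pan-neuronal markers in place of TMM, 9 of the 10 genes were still called higher at 1 µM. The share of mitochondrial counts in the GRC321 library at 1 µM was 9.12%, the highest of all libraries. The part of the marker shifts and of the mitochondrial share in the changes of the 10 genes was not tested.

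At the lower concentrations fewer of the 10 genes passed. At 0.1 µM, where 9.13% of all genes were called, 2 of the 10 rose and 0 fell, and at 0.3 µM, where 17.6% were called, 5 rose and 1 fell. The granule genes Scg2 and Pcsk1 were those called at 0.1 µM. Scg2 stood at 95.3, 125 and 96.1 CPM at 0.1 µM and at 160, 208 and 162 CPM at 0.3 µM. Pcsk1 stood at 38.1, 48.0 and 37.5 CPM and at 64.8, 50.1 and 52.5 CPM. Neither gene overlapped its 0 µM group at either concentration. With groups this small, full separation can arise by chance. The share of all genes separated in this way was not counted for any compound. Here and below, groups lying wholly above or below 0 µM are therefore given as a description. Of the immediate early genes, Npas4, Junb and Egr3 also lay wholly above 0 µM at 0.1 µM, and Jun wholly below. At 0.3 µM Npas4, Junb, Fos, Fosb and Fosl2 lay wholly above. The changes at 0.1 µM were 0.86 ± 0.19 for Scg2 (adjusted p = 0.00174) and 0.94 ± 0.24 for Pcsk1 (adjusted p = 0.00706; 0.71 with adjusted p = 0.11 without 0.1 µM replicate 2), and at 0.3 µM they were 1.60 ± 0.20 (adjusted p = 6.42e-09) and 1.35 ± 0.24 (adjusted p = 2.63e-05). With libraries scaled to pan-neuronal markers, the calls at 0.1 µM were Scg2 higher and Nptx2 lower (−0.68, adjusted p = 0.0017), and Pcsk1 did not pass (0.69, adjusted p = 0.059).

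Vgf, Nr4a3 and Nr4a2 passed from 0.3 µM. Vgf stood at 37.6, 64.0 and 40.7 CPM there, a change of 1.12 ± 0.31 (adjusted p = 0.00736). Nr4a3 stood at 64.6, 154 and 76.7 CPM (1.17 ± 0.24, adjusted p = 0.000182) and Nr4a2 at 14.5, 14.3 and 12.6 CPM (0.87 ± 0.25, adjusted p = 0.00883). These groups lay wholly above 0 µM. Inhba stood at 15.9, 15 and 15.8 CPM, also wholly above 0 µM, but its change of 0.57 ± 0.27 did not pass (adjusted p = 0.144). Vgf no longer passed without 0.3 µM replicate 2 (0.84, adjusted p = 0.096) or without 0 µM replicate 3 (0.92, adjusted p = 0.075). Nr4a2 no longer passed without 0.3 µM replicate 2 (0.73, adjusted p = 0.068), with pan-neuronal scaling (0.58, adjusted p = 0.073), without a project term (0.85, adjusted p = 0.20) or with cytosine arabinoside libraries alone (0.89, adjusted p = 0.097). With all 0 µM libraries as the reference Inhba (0.78, adjusted p = 0.0046) and Nptx1 (0.63, adjusted p = 0.021) passed.

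Nr4a1 gave no call below 1 µM. It stood at 11.4, 26.0 and 18.6 CPM at 0.1 µM and at 9.91, 43.2 and 13 CPM at 0.3 µM, with changes of 0.00 ± 0.32 and 0.18 ± 0.32, and its rise came between 0.3 and 1 µM (3.18 ± 0.33, adjusted p = 2.45e-10). Replicate 2 at 0.3 µM, a GRC327 library at 43.2 CPM, was far above the others, and the same library was the highest of its group for Fos (19.2 CPM against 5.34 and 4.76), Arc (18.1 against 2.92 and 3.22), Nr4a3 and Vgf. Nr4a1 at 0.3 µM thus had 5.43% of its change at 1 µM, against 26.9% for Nr4a2 and 29.6% for Nr4a3.

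Nptx2 was lower at 0.3 µM and higher at 1 µM. It stood at 27.0, 31.3 and 43.1 CPM at 0.1 µM and at 21.9, 36.1 and 37.6 CPM at 0.3 µM. At 0.3 µM every library was below the 0 µM group, a fall of 0.51 ± 0.15 on the log2 scale (adjusted p = 0.00831), and the value at 0.1 µM was −0.42 ± 0.14 (adjusted p = 0.0521). At 0.1 µM it passed with DESeq2 (−0.42, adjusted p = 0.044), limma (−0.47, adjusted p = 0.029), library totals alone (−0.48, adjusted p = 0.032), a minimum count of 50 (−0.44, adjusted p = 0.037), all 0 µM libraries (−0.41, adjusted p = 0.019) and pan-neuronal scaling (−0.68, adjusted p = 0.0017). From 0.3 to 1 µM it rose by 1.53 ± 0.15 (adjusted p = 2.21e-11). Of the 10 genes it alone was called lower at one concentration of cytosine arabinoside and higher at another, but the lower call at 0.3 µM rested on the GRC321 libraries. Within GRC327 alone the value was −0.24 (adjusted p = 0.34), without the GRC321 library at 0 µM (replicate 1) −0.36 (adjusted p = 0.12) and without that at 0.3 µM (replicate 1) −0.30 (adjusted p = 0.24). It also ended without a project term (−0.49, adjusted p = 0.13) and with cytosine arabinoside libraries alone (−0.49, adjusted p = 0.14). The receptor gene Nptxr changed by 0.08, 0.05 and −0.09 at the 3 concentrations and passed at none.

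Between 0.1 and 0.3 µM, where 2.31% of all genes were called, only Scg2 rose (0.74 ± 0.19, adjusted p = 0.0194), and the call ended without 0.1 µM replicate 1 (0.63, adjusted p = 0.23), 0.1 µM replicate 3 (0.69, adjusted p = 0.12) or 0.3 µM replicate 2 (0.59, adjusted p = 0.25), and within GRC327 alone (0.74, adjusted p = 0.16). Between 0.3 and 1 µM, where 14.3% were called, 9 of the 10 rose, all but Nptx1. Without 1 µM replicate 1, the GRC321 library, 7 rose, since Homer1 (0.19, adjusted p = 0.42) and Inhba (0.64, adjusted p = 0.12) no longer passed. The trend over the 4 ranks of concentration, in which 36.2% of all genes were called, was positive for the same 9 genes, from 0.18 ± 0.04 per rank for Homer1 to 1.25 ± 0.08 for Nr4a3, and did not pass for Nptx1 (0.17 ± 0.08, adjusted p = 0.106). Within GRC327 alone the Homer1 trend did not pass (0.08, adjusted p = 0.19), and with all 0 µM libraries that of Nptx1 did (0.19, adjusted p = 0.021).

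Immediate early genes, which lead the response to a stimulus, are set beside these values. At 0.1 µM 0 of the 15 were called higher and Jun was called lower (−0.57 ± 0.16), while Npas4 had 1.14 ± 0.41 (adjusted p = 0.069) and Fosb 1.08 ± 0.49 (adjusted p = 0.187) with wide errors. Over all genes 2.38% were called higher and 6.75% lower at 0.1 µM. At 0.3 µM, where 5.96% of all genes were called higher, 5 of the 15 were: Npas4 (1.89 ± 0.40), Fosb (2.22 ± 0.47), Junb (1.00 ± 0.26), Fos (1.64 ± 0.46) and Fosl2 (1.70 ± 0.55). At 1 µM the largest were Fosb (5.72 ± 0.48), Npas4 (5.64 ± 0.40) and Fos (5.31 ± 0.46), all above the largest change among the 10 genes, and Jun was lower (−0.83). Fosl1 and Egr3 did not pass there. The rises of Fosb, Npas4 and Fos started from low levels, with medians of 1.53, 2.4 and 3.68 CPM over the 16 libraries at 0 µM. The lowest such median among the 10 genes was 8.31 CPM, for Nr4a2.

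In share of the change at 1 µM, the medians of both sets lay close at 0.3 µM and farther apart at 0.1 µM, as a description without a test. Over the 9 and 12 genes called higher at 1 µM, the median share at 0.3 µM was 29.6% for those of the 10 genes (−50% for Nptx2 to 46.5% for Scg2) and 30.8% for the immediate early genes (2.49% for Klf4 to 85% for Atf3). At 0.1 µM it was 6.06% (−41.5% to 30%) and 17.4% (−27.1% to 70.7%). The 9 include Nr4a1 (0.0345%), Nr4a2 (3.89%) and Nr4a3 (12.9%), often counted as immediate early genes, and the gap at 0.1 µM depends on placing them here. Of the others, Inhba (22.8%), Scg2 (24.9%) and Pcsk1 (30%) lay above 17.4%, and Vgf (6.06%), Homer1 (3.31%) and Nptx2 (−41.5%) below. At 0.1 µM 2 of the 10 genes and 0 of the immediate early genes were called higher, against 2.38% of all genes.

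Jun, a partner of Fos proteins, was the immediate early gene called lower. It stood at 74.9, 54.6 and 64.7 CPM at 0 µM and at 32.7, 35.4 and 40.2 CPM at 1 µM, wholly below. Egr3 stood at 108, 82.1 and 108 CPM and at 53.3, 80.7 and 109 CPM, with overlap. Of 16 other activity-induced genes 13 rose and 1 fell at 1 µM, with a median of 1.68. Over all tested genes 16.6% were called higher and 19.4% lower. Those that rose included the neurotrophin Bdnf (4.57 ± 0.32), the repressor Nfil3 (2.89 ± 0.20), Rgs2 (2.80 ± 0.26), a regulator of G protein signalling, and the kinase Sik1 (2.24 ± 0.18).

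**Figure D2:**
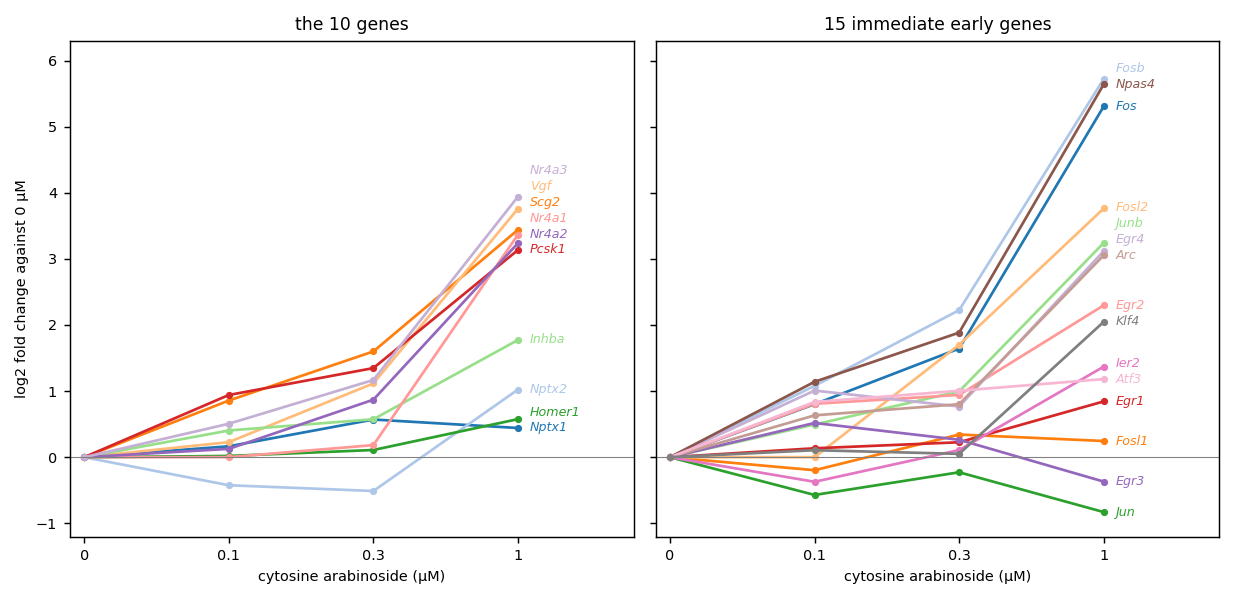
Log2 fold change against 0 µM at each concentration of cytosine arabinoside (µM, evenly spaced ranks) for the 10 genes (left) and 15 immediate early genes (right), 1 line per gene. Nr4a1 is flat up to 0.3 µM and reaches 3.37 at 1 µM, and Fosb, Npas4 and Fos end above 5 on the right. At 0.1 µM Scg2 (0.86) and Pcsk1 (0.94) lie above 0 on the left. Npas4 (1.14), Fosb (1.08) and Egr4 (1.01) lie as far above 0 on the right without a call. Jun (−0.57), Ier2 (−0.37) and Fosl1 (−0.2) lie below 0 there.

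5-Fluorouracil, given at the same concentrations, gave a call for 1 of the 10 genes, which depended on the processing. Nptx2 stood at 51.4 and 42.9 CPM at 0 µM, at 32.9, 39.3 and 39.4 CPM at 0.1 µM, at 24.3, 35.7 and 40.7 CPM at 0.3 µM and at 22.9, 25.3 and 35.8 CPM at 1 µM. Each dosed library was below both 0 µM libraries, and the GRC321 library was the lowest of each dosed group, while both 0 µM libraries were of GRC327. The change at 1 µM was −0.62 ± 0.16 (adjusted p = 0.0161), where 4.03% of all genes were called, and the trend was −0.20 ± 0.05 per rank (adjusted p = 0.00906), where 5.16% were called. The call at 1 µM ended without 0 µM replicate 1 (−0.48) or without 1 µM replicate 2 (−0.46, adjusted p = 0.21). It also ended without a project term (−0.75, adjusted p = 0.051) and with 5-fluorouracil libraries alone (−0.61, adjusted p = 0.065), and within GRC327 alone it held. The trend was −0.16 without either of the 2 named libraries (adjusted p = 0.14 without 1 µM replicate 2).

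The remaining genes gave no call with 5-fluorouracil. Scg2 stood at 59.5 and 61.5 CPM at 0 µM and at 74.3, 88.8 and 82.7 CPM at 1 µM, wholly above, with a change of 0.46 ± 0.22 that did not pass (adjusted p = 0.306). Vgf stood at 24.7 and 21.6 CPM and at 9.97, 21.3 and 20.3 CPM, wholly below (−0.34 ± 0.36, adjusted p = 0.728). At 0.1 µM, where 0.00652% of all genes were called, and at 0.3 µM, where 0.0456% were called, 0 of the 10 passed, with 0 and 2 at an unadjusted p under 0.05, where 2.6% and 3.09% of all genes passed that cut. At 1 µM 11 of 12 oligodendrocyte markers and 5 of 10 astrocyte markers fell and 2 of 11 GABAergic markers rose, while 0 of the 15 immediate early genes were called; their part in the fall of Nptx2 was not tested.

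Both antimetabolites are pyrimidine analogs, cytosine arabinoside a nucleoside with an arabinose sugar and 5-fluorouracil a free base with a fluorine, and their changes were compared at the 3 matched concentrations, each against its own 0 µM libraries. At 1 µM, where 12.9% of all genes differed, 7 of the 10 genes rose more with cytosine arabinoside. The differences on the log2 scale were 4.10 ± 0.47 for Vgf, 3.91 ± 0.36 for Nr4a3, 3.90 ± 0.48 for Nr4a1, 3.21 ± 0.37 for Nr4a2, 2.98 ± 0.29 for Scg2, 2.69 ± 0.37 for Pcsk1 and 1.64 ± 0.22 for Nptx2. Their adjusted p ran from 4.65e-12 for Nr4a3 to 1.39e-07 for Pcsk1. Inhba (1.08, 95% interval 0.27 to 1.89, adjusted p = 0.0682), Homer1 (0.46, 0.07 to 0.86, adjusted p = 0.123) and Nptx1 (0.49, −0.32 to 1.31, adjusted p = 0.511) did not pass, which does not show that the compounds act alike on them. With all 0 µM libraries as the reference Inhba (1.75, adjusted p = 2e-06) and Homer1 (0.40, adjusted p = 0.023) passed, and with a single project term Inhba did (1.27, adjusted p = 0.04). Inhba also passed without cytosine arabinoside 1 µM replicate 2 (1.26) or 3 (1.33), 0 µM replicate 2 (1.25) or 5-fluorouracil 1 µM replicate 2 (1.34), and Homer1 without cytosine arabinoside 1 µM replicate 2 (0.62) or 0 µM replicate 2 (0.63).

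At 0.3 µM, where 5.89% of all genes differed, 3 of the 10 did: Scg2 (1.51 ± 0.29, adjusted p = 0.000231), Nr4a3 (1.23 ± 0.36, adjusted p = 0.0241) and Pcsk1 (1.16 ± 0.37, adjusted p = 0.0497). Leaving out single libraries left between 1 and 4 of the 10 called. Pcsk1 stood at the threshold and ranged down to 0.88 (adjusted p = 0.27) without 5-fluorouracil 0.3 µM replicate 3, and Nr4a3 was 0.79 (adjusted p = 0.25) without cytosine arabinoside 0.3 µM replicate 2. Nptx2 differed by −0.15 there (95% interval −0.58 to 0.29) and by −0.22 at 0.1 µM (−0.66 to 0.22). At 0.1 µM, where 3.84% of all genes differed, 0 of the 10 passed and 1 had an unadjusted p under 0.05, where 13.8% of all genes did; it was Scg2, at 0.77 (0.18 to 1.37). All 10 genes were compared at each of the 3 concentrations, with p-values adjusted over all genes.

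**Figure D3:**
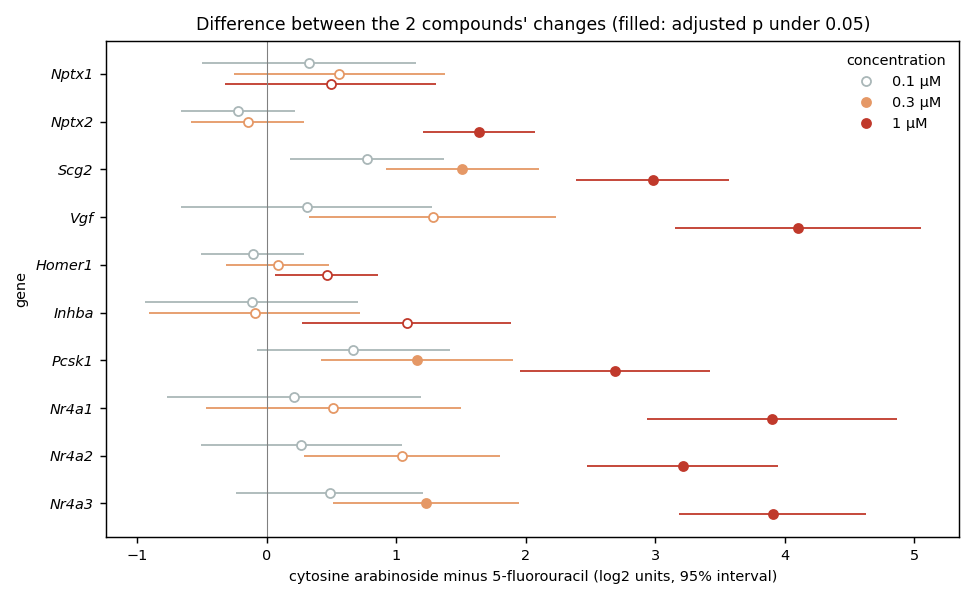
Change with cytosine arabinoside minus change with 5-fluorouracil (log2 units) for each of the 10 genes at 0.1, 0.3 and 1 µM, with 95% intervals; filled points passed at an adjusted p under 0.05. At 1 µM the 7 filled points lie between 1.64 (Nptx2) and 4.10 (Vgf), and Nptx1 lies at 0.49 with an interval across 0.

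Haloperidol, domoic acid and the pyrethroids gave 0 calls among the 10 genes at any concentration, with edgeR and also with DESeq2 and with limma on the deposited CPM. With haloperidol, 0% of all genes were called at 0.3 µM, 0% at 1 µM, 0.0261% at 3 µM and 0.0456% along the trend, and at an unadjusted p under 0.05 the counts among the 10 were 0, 2 and 3 at the rising concentrations and 3 along the trend, where 2.07%, 3.46%, 5.14% and 5.14% of all genes passed that cut. Scg2 stood at 70.7, 65.1 and 59.4 CPM at 0 µM and at 40.9, 41.5 and 43.9 CPM at 3 µM, wholly below, with a value of −0.62 ± 0.20 that did not pass (adjusted p = 0.57). Nptx2 stood at 44.0, 47.0 and 51.1 CPM and at 26.3, 38.9 and 35.9 CPM, also wholly below (−0.51 ± 0.14, adjusted p = 0.408), and Vgf at 34.3, 22.1 and 18.9 CPM and at 14.1, 21.6 and 11.1 CPM with overlap (−0.66 ± 0.32, adjusted p = 0.96). Of the markers, Sst, an interneuron peptide, was called lower at 3 µM (−1.33 ± 0.20), and the summed GABAergic level was 429 to 496 CPM against 635 to 852 CPM.

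With domoic acid 0% of all genes were called at 0.1 µM, 1.51% at 0.3 µM, 0% at 1 µM and 0% along the trend. At 1 µM Nptx1 stood at 112, 59.6 and 74.0 CPM against 60.3, 49.6 and 42.9 CPM at 0 µM (0.65 ± 0.27, adjusted p = 1), and Scg2 at 85.2, 74.8 and 76.7 CPM against 60.3, 57.0 and 59.4 CPM (0.42 ± 0.20, adjusted p = 1). For Nptx1 the mean of this 0 µM group, 50.9 CPM, was the lowest of all 0 µM groups. Its mean at 1 µM, 81.8 CPM, lay near the median of 83.5 CPM over the 16 libraries at 0 µM. Scg2 and Pcsk1 lay wholly above 0 µM without passing. The share of all genes separated in this way was not counted, so no conclusion is drawn from it. At 0.3 µM, where 231 genes were called over the whole table, the values of the 10 genes ran from −0.40 for Nr4a2 to 0.45 for Nptx1, and 0 had an unadjusted p under 0.05, where 22.5% of all genes did. At that cut the counts were 0 at 0.1 µM (2.22% of all genes), 2 at 1 µM (3.6%) and 1 along the trend (5.74%).

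With deltamethrin 0% of all genes were called at 0.3, 1, 3 and 10 µM and along the trend, and with cypermethrin 0% at 1, 3 and 10 µM and along the trend. At an unadjusted p under 0.05 the counts among the 10 were 0, 0, 0 and 2 for deltamethrin, where 2.28%, 5.17%, 1.91% and 4.95% of all genes passed that cut, and 0, 1 and 1 for cypermethrin, where 5.04%, 6.08% and 7.2% did. Along the trends they were 2 and 1, against 4.04% and 7.7% of all genes. Scg2 stood at 159, 71.5 and 58.4 CPM at 10 µM deltamethrin and at 64.9, 122 and 61.1 CPM at 10 µM cypermethrin, in each group with 1 library far above the rest. In deltamethrin that library, of GRC321, was also the highest of its group for Vgf (50.4 against 17.4 and 15.3 CPM), Pcsk1 (53.4 against 22.3 and 19.9) and Nr4a3 (71 against 42.9 and 43.5). Mitochondrial counts made up 6.63% of that library, against 2.96% and 3.02% in the other libraries of its group, and their part in these levels was not tested. In cypermethrin it was a GRC327 library, the highest of its group for Vgf and Pcsk1 too (40.1 and 40.2 CPM). The fitted values for Scg2 were 0.58 ± 0.20 (adjusted p = 0.959) and 0.41 ± 0.22 (adjusted p = 0.715).

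Deltamethrin and cypermethrin share the cyano pyrethroid frame and differ in the halogens of the acid side chain, bromine in deltamethrin and chlorine in cypermethrin. Their changes were compared at 1, 3 and 10 µM, where 0%, 0% and 0% of all genes differed, and 0 of the 10 genes passed at any of them. At 10 µM the difference was 0.17 for Scg2 (95% interval −0.42 to 0.77), 0.01 for Vgf (−0.95 to 0.98), −0.20 for Nptx2 (−0.64 to 0.23) and 0.86 for Inhba (0.03 to 1.70, adjusted p = 0.673). At an unadjusted p under 0.05, 1 of the 10 genes differed at 10 µM, Inhba, against 7.27% of all genes.

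**Figure D4:**
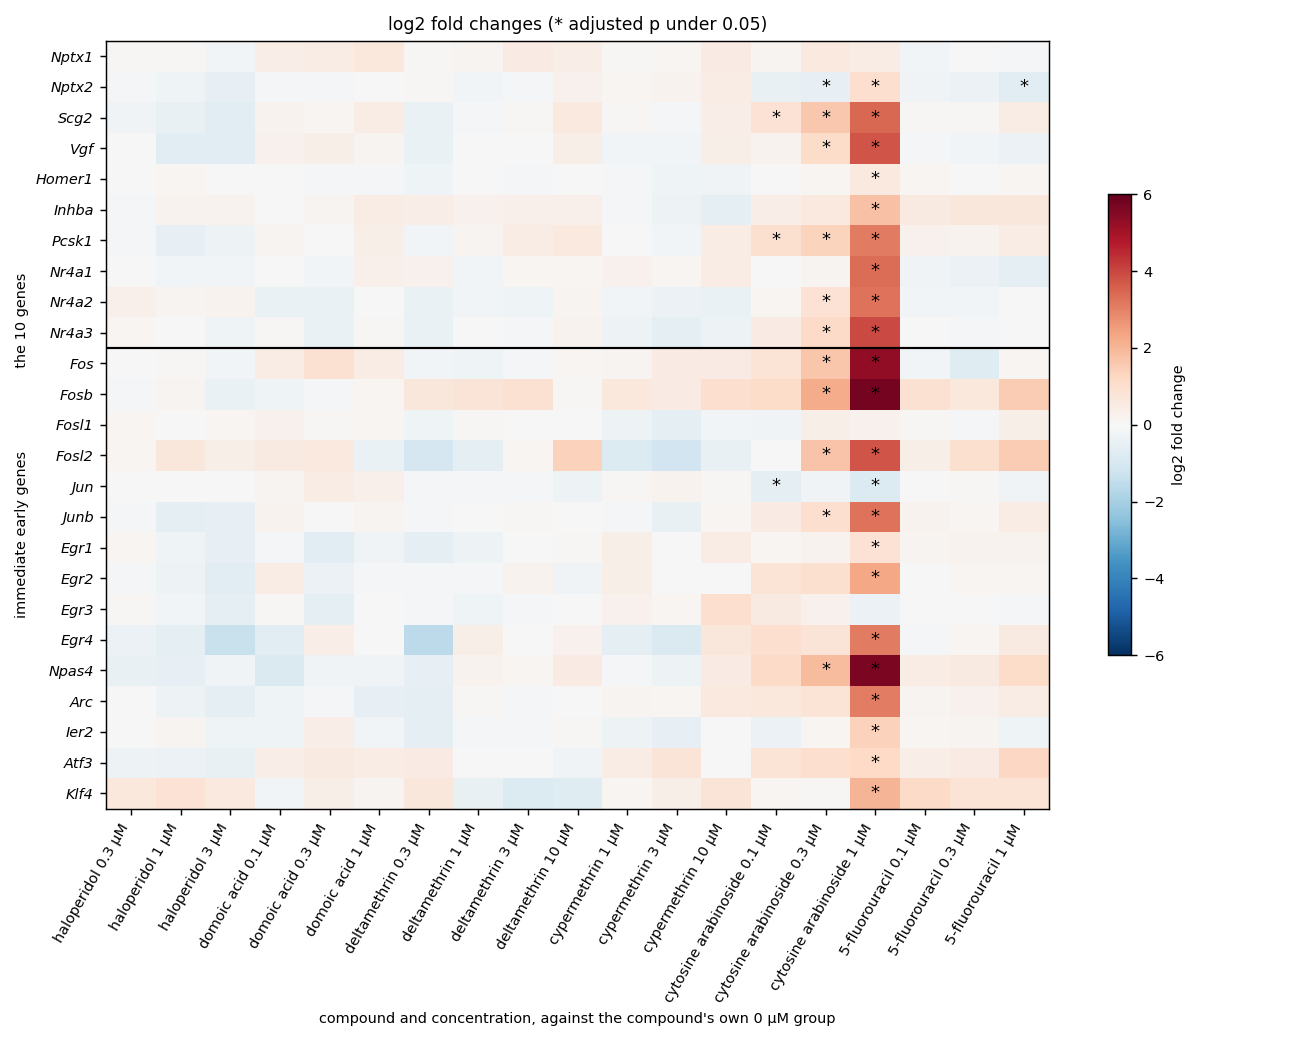
Log2 fold change of the 10 genes (above the line) and the 15 immediate early genes (below) in each comparison of a concentration with its own 0 µM group; stars mark an adjusted p under 0.05. Stars stand in the cytosine arabinoside columns and, for Nptx2, at 1 µM 5-fluorouracil.

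**Figure D5:**
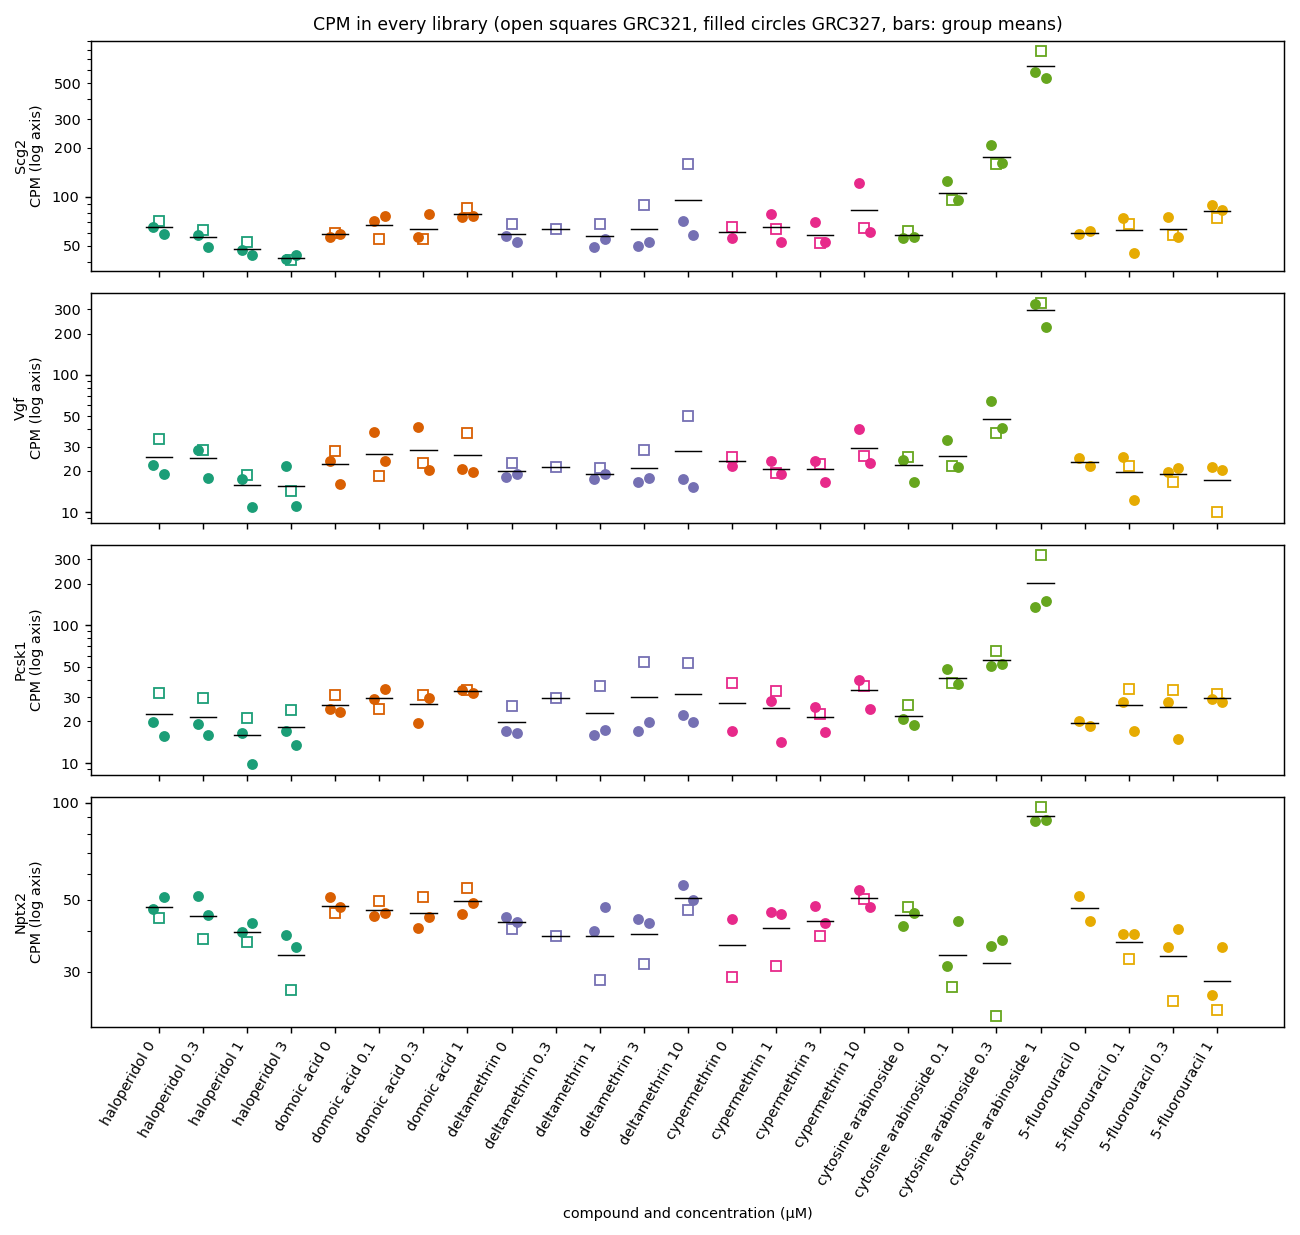
Level of Scg2, Vgf, Pcsk1 and Nptx2 (CPM, log axes) in every library of the 25 groups, with open squares for GRC321, filled circles for GRC327 and bars at the group means. Outside cytosine arabinoside, the GRC321 library at 10 µM deltamethrin stands out for Scg2 (159 CPM) and Nptx2 lies at 22.9 to 35.8 CPM at 1 µM 5-fluorouracil.

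The genes most like each of the 10 were ranked by Pearson's r of the mean log2 CPM over the 25 groups, which share libraries, depth and the large change at 1 µM cytosine arabinoside, so that r is given as a description. Scg2 and Pcsk1 were close to each other (0.973), and Scg2 was as close to Bdnf (0.973) and Lgi2 (0.973). Pam was the nearest to Vgf (0.966), Dusp4 to Nr4a3 (0.978), Junb to Nr4a2 (0.939), Per1 to Nr4a1 (0.934), Nfil3 to Inhba (0.937), Plcl2 to Homer1 (0.894), Jarid2 to Nptx2 (0.852) and the gene listed as AC126641.1 to Nptx1 (0.788). Without the 4 cytosine arabinoside groups, over 21 groups, Scg2 and Pcsk1 still had r = 0.817, while r was 0.549 for Vgf and Pam and 0.216 for Nr4a1 and Per1. Over the same 21 groups Nptx2 had r = 0.756 with Vgf, −0.715 with Homer1 and 0.134 with Nptx1, and the Nr4a genes had r between −0.399 (Nr4a1 and Nr4a2) and 0.366 (Nr4a2 and Nr4a3).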

How the data were processed

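Rat cortical cultures were profiled by polyA RNA sequencing in 71 libraries. The deposited gene table holds expected counts made by the authors, with Partek and STAR named in the submitters' processing notes; versions, genome build and strandedness are not given in the sources used here. Of its values, 20.6% were not whole, and they were rounded. The deposited CPM table was used in 1 alternative. Totals of 5207635 to 43119303 counts per library set the precision, and intervals cover the fit alone. Counts were fitted in edgeR 4.0.16 (R 4.3.3) by the quasi-likelihood test with TMM scaling and a minimum count of 10 in filterByExpr, with 1 coefficient per group and 1 sequencing project term per compound (31 columns, 40 residual degrees of freedom), and Benjamini-Hochberg adjustment at 0.05. Trends are slopes over concentration ranks. DESeq2 1.42.0 and limma 3.58.1 were alternatives, with other scalings, filters and sample sets. The fit was tested on simulated data. The deltamethrin 0.3 µM group had 1 library, whose spread was taken from the other groups. Named were all 10 members, up to 4 genes of each other list with the smallest p in a main comparison (6 for immediate early genes), and the 3 genes most alike to each member; list genes named beyond these (Jun, Egr3, Fosl1, Fosl2, Klf4, Atf3) were chosen after their values were seen. Members and lists were chosen with earlier results of these data known, and promoter motifs after the sequences were seen.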

Additional observations from a re-analysis of the deposited data

Results flagged for a closer look

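Changes with cytosine arabinoside and with 5-fluorouracil at the same concentration differed, by a test of the difference itself in edgeR, for 3 of the 10 genes at 0.3 µM and 7 at 1 µM. Over all genes 5.89% differed at 0.3 µM and 12.9% at 1 µM. At 0.3 µM the change with cytosine arabinoside was higher by 1.51 on the log2 scale for Scg2, by 1.16 for Pcsk1 and by 1.23 for Nr4a3. The Pcsk1 call (adjusted p = 0.0497) ended in edgeR with DESeq2 size factors (adjusted p = 0.052), no filter (0.058), a single project term (0.075) or GRC327 alone (0.077). The Nr4a3 call ended with pan-neuronal scaling (adjusted p = 0.062) or the compared compounds alone (0.1). At 1 µM it was higher by 1.64 for Nptx2, 2.98 for Scg2, 4.10 for Vgf, 2.69 for Pcsk1, 3.90 for Nr4a1, 3.21 for Nr4a2 and 3.91 for Nr4a3.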

How the results depend on the processing

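No result changed direction under any alternative, where sign changes of values that passed in neither fit are not counted. At 1 µM cytosine arabinoside 9 of the 10 genes were called in most alternatives, 8 to 9 with single libraries left out. Without a project term the count was 1 in place of 2 at 0.1 µM cytosine arabinoside, and 0 in place of 1 at 1 µM 5-fluorouracil and between 0.1 and 0.3 µM cytosine arabinoside. With the compared compounds alone it was 0 at 1 µM 5-fluorouracil, 0 between 0.1 and 0.3 µM, 1 for the difference between antimetabolites at 0.3 µM and 1 for the haloperidol trend (Scg2, −0.21, adjusted p = 0.042). Scaling to pan-neuronal markers gave 0 between 0.1 and 0.3 µM and 1 for the difference at 0.3 µM. A single project term and GRC327 alone also gave 0 between 0.1 and 0.3 µM, and all 0 µM libraries as the reference gave 1 for the difference at 0.1 µM. With single libraries left out the counts ran from 1 to 3 at 0.1 µM, 4 to 6 at 0.3 µM, 0 to 2 between 0.1 and 0.3 µM, 7 to 9 between 0.3 and 1 µM, 1 to 4 and 7 to 9 for the differences at 0.3 and 1 µM, and 0 to 1 for 5-fluorouracil at 1 µM and its trend. The cause was not tested. Among all genes at 1 µM cytosine arabinoside, 2544 were higher and 2976 lower; scaling to pan-neuronal markers gave 1294 and 3981 with a median change of −0.16, and no project term 1167 and 1946. At 1 µM 5-fluorouracil that scaling gave 12 higher and 1371 lower, against 106 and 513. Single libraries were not left out for the lower concentrations of the other compounds, the remaining trends and the remaining differences. No paired analysis was possible because the labels do not tie libraries of different groups to a shared culture.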
